A study of Danio rerio with 12 samples.

Results

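Cartilage matrix genes and the Sox transcription factors that regulate them were followed in whole wild-type zebrafish (Danio rerio) embryos. The genes were 10 of the 32105 in the deposited count table. They were 2 copies of SOX9, SOX5, the aggrecan gene acana, the link protein gene hapln1a, MATN1, 2 copies of MATN3, the epiphycan gene epyc and the chondromodulin gene cnmd. They were chosen by name for their role, with earlier results of these data known, and collagens were left out. MATN3, epyc and SOX5 were taken by gene identifier and the others by symbol. The name table gives both SOX9 genes (ENSDARG00000003293 and ENSDARG00000043923) 1 symbol, and likewise both MATN3 genes (ENSDARG00000069245 and ENSDARG00000069265), so the a and b copies were not told apart and each is given by its identifier.

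RNA sequencing covered 12 libraries in 3 groups of 4. One group was given synthetic miR-29a at 2 ng, another was given synthetic miR-101a at 2 ng, and the control group had no perturbation. All embryos were wild type, were 2 days old and were taken as whole organisms, and neither a mock-treated group nor the way the microRNA was given is named in the labels. The design asks how each microRNA changes the transcriptome against untreated embryos and how the microRNAs differ from each other.

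SOX9 is the transcription factor that commits mesenchymal cells to cartilage, and in mice it acts with SOX5 and SOX6 on the genes of the cartilage matrix. Aggrecan is the large chondroitin sulphate proteoglycan of that matrix, and link protein fastens it to hyaluronan. Matrilins are adaptor proteins that join collagen fibrils to other matrix components, epiphycan is a small leucine-rich proteoglycan, and chondromodulin is a cartilage glycoprotein that inhibits blood vessel growth. In zebrafish embryos these genes are also active outside the skeleton, as SOX9 is in the ear, the brain and the eye. In whole-embryo RNA, fewer cells of a type and less RNA per cell cannot be told apart.

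Total counts ran from 19804199 to 30383374 per library, and 20872 genes had enough counts to be tested, all 10 genes described here among them. miR-29a replicate 3 stood apart from the rest. Genes of ribosomal proteins took 15.7% of its counts, against 8.06% to 9.63% in the other 11 libraries. Over the 13989 genes whose mean was 5 CPM or more (CPM being counts scaled to a fixed library size after TMM normalisation), this library lay far outside its group in 33.7%, against 0.164% to 3.13% for each other library. The TMM factor of this library was 0.729, against 0.963 to 1.11 in the others. Results are therefore given with all 12 libraries and also without miR-29a replicate 3. Its weight is felt in every comparison, since the 3 groups shared 1 estimate of the spread.

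Scaled by gene length and library total (RPKM, not TMM scaled), the genes spanned a wide range of levels. In control embryos hapln1a was the most abundant at 65.4 ± 1.09 RPKM (mean ± SD, n = 4), above the range of every other gene. cnmd followed at 31.4 ± 5.39 RPKM, epyc at 25.7 ± 3.90, SOX9 ENSDARG00000003293 at 24.4 ± 0.957, MATN3 ENSDARG00000069245 at 23.2 ± 4.44, SOX9 ENSDARG00000043923 at 20.2 ± 0.388 and SOX5 at 19.4 ± 0.670. Each of these overlapped its neighbour in that order. MATN3 ENSDARG00000069265 at 5.50 ± 1.58 RPKM, acana at 1.34 ± 0.198 and MATN1 at 0.546 ± 0.193 were each below the range of the gene before them. The order differed in its middle part between groups. In miR-29a embryos MATN3 ENSDARG00000069245 stood 8th of the 10 at 6.26 ± 0.742 RPKM, against 5th in control, and MATN3 ENSDARG00000069265 stood 7th at 8.50 ± 1.77 RPKM. Both copies held the same places in miR-101a embryos, with ENSDARG00000069245 at 10.5 ± 1.41 RPKM and ENSDARG00000069265 at 13.6 ± 1.402 RPKM. hapln1a stayed first and acana and MATN1 last in each of the 3 groups.

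**Figure D1:**
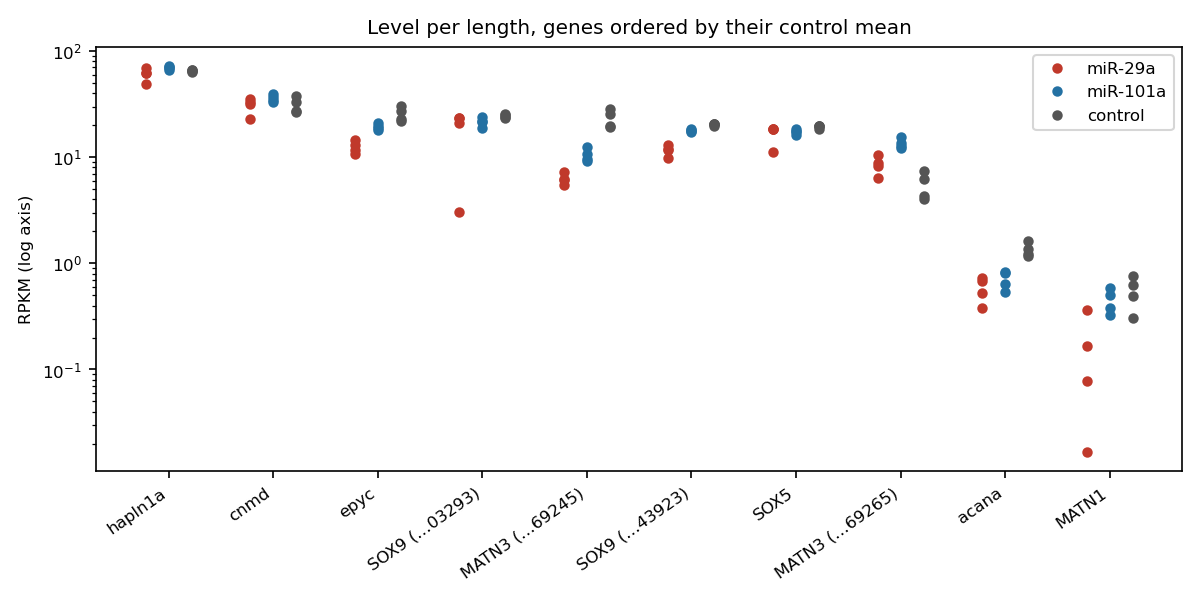
RPKM on a log axis for the 10 genes, ordered by their control mean, with 1 point per library and the groups miR-29a, miR-101a and control side by side. hapln1a lies highest at 65.4 RPKM in control and MATN1 lowest at 0.546 RPKM, and the 4 miR-29a points of MATN1 spread widest.

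With miR-29a, 5 of the 10 genes fell and 0 rose (adjusted p under 0.05), where 11.9% of all genes tested fell and 17.1% rose. These were SOX9 ENSDARG00000043923, SOX5, acana, MATN3 ENSDARG00000069245 and epyc. The median log2 fold change of the 10 genes was -0.70, against 0.03 over all genes. In 6 of the 10 the miR-29a libraries lay wholly below the control libraries in CPM, which was the case in 15.1% of all genes. When miR-29a replicate 3 was left out, 8 of the 10 fell and 0 rose, where 26.8% of all genes fell and 25.8% rose, and the median was -0.58.

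With miR-101a 5 genes fell and 1 rose, where 6.97% of all genes fell and 11.7% rose. Those that fell were SOX9 ENSDARG00000043923, SOX5, acana, MATN3 ENSDARG00000069245 and epyc, and the gene that rose was MATN3 ENSDARG00000069265. The median was -0.26, against 0.02 over all genes. In 6 of the 10 the miR-101a libraries lay wholly below control in CPM (20.5% of all genes) and in 1 wholly above (23.3% of all genes). With miR-29a replicate 3 dropped from the joint fit, 6 were lower and 1 higher, where 24.2% of all genes fell and 23.7% rose. Both comparisons use the same 4 control libraries, so their values are set side by side here and no agreement is read from them.

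In the direct comparison, 3 of the 10 genes were lower with miR-29a than with miR-101a and 0 were higher, where 9.23% of all genes were lower and 8.64% higher. They were SOX9 ENSDARG00000043923, MATN3 ENSDARG00000069245 and epyc. In 3 of the 10 the miR-29a libraries lay wholly below the miR-101a libraries (12.0% of all genes). The median was -0.44, against 0.02 over all genes. With miR-29a replicate 3 left out, 6 of the 10 were lower and 0 higher, where 22.1% of all genes were lower and 21.3% higher.

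**Figure D2:**
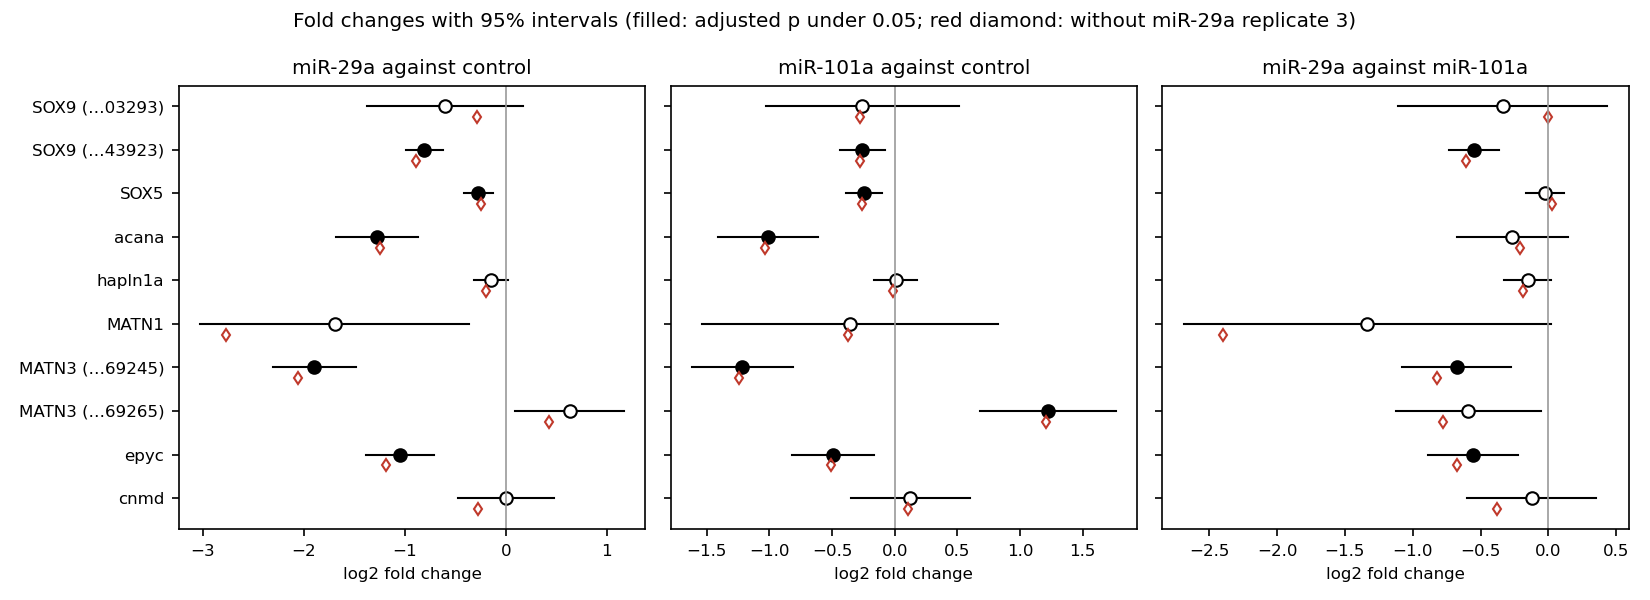
Log2 fold changes of the 10 genes in the 3 comparisons with 95% intervals, filled where the adjusted p was under 0.05, and red diamonds for the fit without miR-29a replicate 3. The 2 copies of MATN3 lie on opposite sides of 0 against control, and cnmd lies at 0.13 or nearer to 0 in size in each comparison that uses all 12 libraries.

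Among the regulators, SOX9 ENSDARG00000043923 was lower in both microRNA groups than in control. It had 37.0, 42.1, 47.6 and 39.0 CPM in miR-29a replicates 1 to 4, 57.8, 62.1, 65.0 and 57.8 CPM in miR-101a embryos, and 70.4, 72.7, 74.2 and 73.0 CPM in control embryos. The 3 groups did not overlap, with miR-29a lowest and control highest. Against control it fell by 0.81 log2 units with miR-29a (SE 0.08, n = 4 per group, adjusted p = 3.06e-05, edgeR's quasi-likelihood test with Benjamini-Hochberg adjustment). That call held in each of the 21 alternatives. With miR-101a it was at -0.26 (SE 0.08, adjusted p = 0.0492), a call at the edge of the threshold that was lost when any of the libraries was left out other than miR-29a replicates 1 and 3 (adjusted p of 0.0539 to 0.135). It was also lost with no filter on low counts (0.0609), with a gene length trend removed (0.0773) and under limma on RPKM (0.14). When miR-29a replicate 3 was left out it was at -0.28 with miR-101a (adjusted p = 2.63e-04). The direct difference between miR-29a and miR-101a was -0.55 (SE 0.08, adjusted p = 0.00101) and was called in each alternative.

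SOX9 ENSDARG00000003293 behaved differently in 1 library. It had 34.3, 38.1, 7.55 and 38.6 CPM in miR-29a replicates 1 to 4, 36.7, 38.8, 34.1 and 40.7 CPM in miR-101a embryos, and 47.0, 45.4, 43.9 and 43.5 CPM in control embryos. In CPM the libraries of both microRNA groups lay below all control libraries, and miR-29a replicate 3 lay far below the rest. In RPKM, without TMM scaling, miR-101a replicate 4 at 24.0 lay above control replicates 3 and 4 at 23.5 and 23.8. With all libraries neither change was called: -0.60 with miR-29a (95% interval -1.37 to 0.18, adjusted p = 0.24) and -0.26 with miR-101a (-1.03 to 0.51, adjusted p = 0.701). Without miR-29a replicate 3 it fell by 0.28 log2 units with miR-29a (SE 0.06, adjusted p = 0.00118) and by 0.28 with miR-101a (SE 0.06, adjusted p = 7.95e-04). The direct difference was then -0.0038 (SE 0.06, adjusted p = 0.97), against -0.34 (interval -1.11 to 0.43) with all libraries.

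The ratio of both SOX9 copies, ENSDARG00000043923 over ENSDARG00000003293 per length, was 0.553, 0.567, 3.23 and 0.517 in miR-29a replicates 1 to 4. It was 0.807, 0.821, 0.978 and 0.727 in miR-101a embryos and 0.767, 0.820, 0.865 and 0.859 in control embryos. Outside replicate 3, the miR-29a libraries were lower than those of both other groups. An exact two-sided permutation test of the log2 ratio without replicate 3 gave a difference of -0.60 between miR-29a and control and likewise -0.60 between miR-29a and miR-101a (exact p = 0.0286 for each, the smallest this design allows, adjusted p = 0.0429 over 6 tests of copy ratios). With replicate 3 the difference from control was 0.04 (exact p = 1), so this result depends on that library. The omission of replicate 3 from these ratio tests was chosen after the ratios were seen. By then the remaining miR-29a libraries were known to lie lowest, so the p-values without replicate 3 give no support of their own.

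SOX5, the partner of SOX9 that lacks an activation domain of its own, changed least among the genes that fell. It had 107, 107, 98.1 and 109 CPM in miR-29a replicates 1 to 4, 105, 111, 103 and 109.8 CPM in miR-101a embryos, and 120.3, 127, 132 and 129 CPM in control embryos. In CPM both microRNA groups lay below control without overlap, and they overlapped each other. In RPKM, which is not TMM scaled, miR-29a replicates 1 and 4 at 18.5 and 18.6 lay above control replicate 1 at 18.4. It fell by 0.27 log2 units with miR-29a (SE 0.06, adjusted p = 0.00762) and was at -0.24 with miR-101a (SE 0.06, adjusted p = 0.0194). When a trend on gene length was removed from each library, the miR-29a value was -0.10 (adjusted p = 0.475) and the miR-101a value -0.22 (adjusted p = 0.116). Under limma on log2(RPKM + 0.5) they were -0.24 (adjusted p = 0.231) and -0.16 (adjusted p = 0.503). A loss of the miR-101a call also followed from omitting miR-101a replicate 1 or 3 or control replicate 2, 3 or 4 in turn (adjusted p of 0.0551 to 0.0627). The direct difference was -0.03 with an interval of -0.16 to 0.11.

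**Figure D3:**
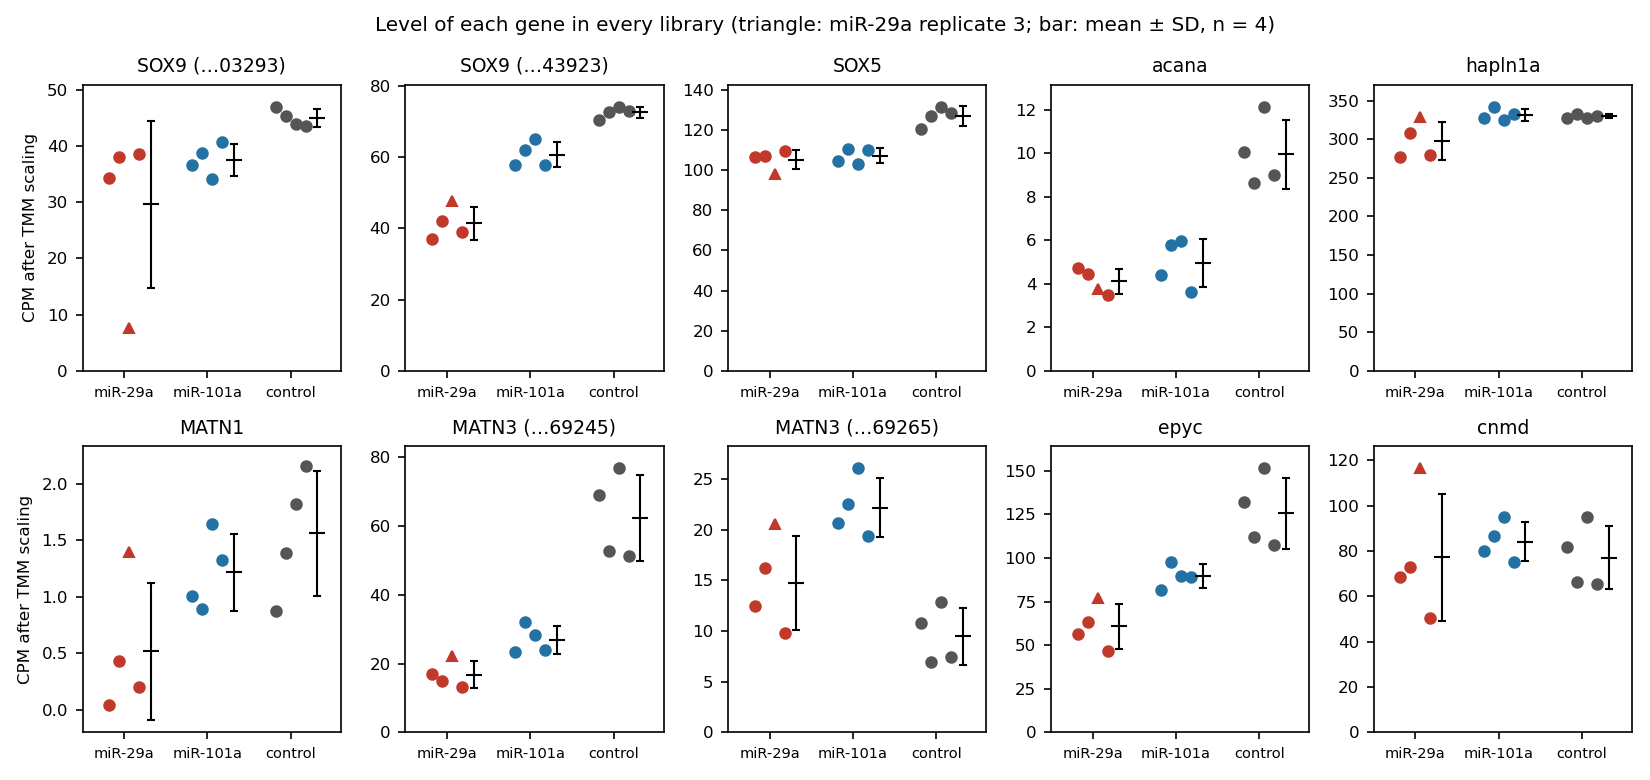
CPM after TMM scaling in every library for the 10 genes, with groups from left to right miR-29a, miR-101a and control, and the mean with SD of 4 libraries beside each group. Triangles mark miR-29a replicate 3, at 7.55 CPM the lowest library for SOX9 ENSDARG00000003293 and at 117 CPM the highest for cnmd.

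Of the proteoglycan aggregate genes among the 10, acana fell and hapln1a was not called. Relatives outside the 10, chosen after their values were seen, were not uniform. acanb was at 1.49 with miR-29a (adjusted p = 0.0508), -0.34 with miR-101a (adjusted p = 0.746) and 1.83 between them (adjusted p = 0.0332). With miR-29a HAPLN1 ENSDARG00000068516 fell (-0.94, adjusted p = 0.0116) and HAPLN1 ENSDARG00000102395 was not called (-0.78, adjusted p = 0.286). HAPLN3 was not called with miR-29a either (0.16, adjusted p = 0.602). acana, the aggrecan gene, had 4.72, 4.47, 3.78 and 3.48 CPM in miR-29a replicates 1 to 4, 4.40, 5.80, 5.96 and 3.65 CPM in miR-101a embryos, and 10.04, 8.63, 12.1 and 9.004 CPM in control embryos. Both microRNA groups lay below all control libraries. It fell by 1.28 log2 units with miR-29a (SE 0.19, adjusted p = 3.52e-04) and by 1.01 with miR-101a (SE 0.18, adjusted p = 0.00267). Each call held in the 21 alternatives, but the values were -0.78 and -0.62 under limma on log2(RPKM + 0.5), a scale that understates changes of low genes. The direct difference of -0.27 was not called (interval -0.67 to 0.14, adjusted p = 0.38).

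hapln1a had 276, 308, 328 and 280.1 CPM in miR-29a replicates 1 to 4, 327, 342, 324 and 333 CPM in miR-101a embryos, and 328, 333, 328 and 330.2 CPM in control embryos. With a coefficient of variation of 0.723% its control libraries were the tightest of the set, and the groups overlapped. The change was -0.14 with miR-29a (interval -0.32 to 0.03, adjusted p = 0.199) and 0.0087 with miR-101a (interval -0.16 to 0.18, adjusted p = 0.961). Replicate 3 was the highest miR-29a library in CPM. In RPKM, which is not TMM scaled, it was the lowest at 48.6, against 64.1 to 66.6 in control libraries. The other 3 miR-29a libraries lay below control in CPM. In RPKM replicates 1, 2 and 4 were at 62.3, 68.6 and 61.7, with replicate 2 above all control libraries. Their TMM factors were 1.09 to 1.11, against 0.963 to 0.986 in control libraries, so the separation in CPM depends on that scaling. Without replicate 3 the gene fell by 0.20 log2 units (SE 0.05, adjusted p = 0.00192), and by 0.19 against miR-101a (adjusted p = 0.00384). DESeq2 called the miR-29a value with all libraries as well (-0.17, adjusted p = 0.00549).

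The matrilins held both the largest loss and the gain. MATN3 ENSDARG00000069245 had 17.1, 14.9, 22.1 and 13.1 CPM in miR-29a replicates 1 to 4, 23.2, 32.1, 28.2 and 24.0 CPM in miR-101a embryos, and 68.9, 52.7, 76.8 and 51.1 CPM in control embryos. The 3 groups did not overlap, again with miR-29a lowest. It fell by 1.89 log2 units with miR-29a (SE 0.19, adjusted p = 2.5e-05), a level 3.71-fold lower than control, and by 1.22 with miR-101a (SE 0.18, adjusted p = 8.63e-04). Both calls held in each alternative. The direct difference was -0.68 (SE 0.18, adjusted p = 0.0254), called also without miR-29a replicate 3 (-0.82, adjusted p = 0.00582). It did not hold on omitting miR-101a replicate 2 or 3 or miR-29a replicate 1, 2 or 4 (adjusted p of 0.0532 to 0.0753) or in a fit of the 8 libraries alone (0.059).

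MATN3 ENSDARG00000069265 had 12.4, 16.3, 20.5 and 9.80 CPM in miR-29a replicates 1 to 4, 20.6, 22.6, 26.1 and 19.4 CPM in miR-101a embryos, and 10.8, 6.92, 12.8 and 7.43 CPM in control embryos. The miR-101a libraries lay above all control libraries, while the miR-29a libraries overlapped both groups. It rose by 1.22 ± 0.25 on the log2 scale with miR-101a (SE, adjusted p = 0.00503), in each of the 21 alternatives as well. With miR-29a it was at 0.63 ± 0.25 (adjusted p = 0.0761), or 0.43 without replicate 3 (adjusted p = 0.173). Leaving out miR-29a replicate 4 or control replicate 3 gave a call instead (0.79 and 0.81, adjusted p = 0.0291 and 0.0401), and so did limma on log2(RPKM + 0.5) (0.60, adjusted p = 0.0332). A fit with replicate number as a block called the miR-29a value too. The direct difference was -0.59 (interval -1.12 to -0.06, adjusted p = 0.123), or -0.78 with miR-29a replicate 3 left out (adjusted p = 0.0218). It was also called with replicate number as a block, with the length trend removed (-0.69, adjusted p = 0.0338) and by limma on log2(RPKM + 0.5) (-0.66, adjusted p = 0.0302). Close copies can share reads, so the split between both MATN3 genes, and between both SOX9 genes, is uncertain to that degree.

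Per length, MATN3 ENSDARG00000069265 over ENSDARG00000069245 was 1.13, 1.70, 1.45 and 1.16 in miR-29a replicates 1 to 4, 1.39, 1.10, 1.44 and 1.27 in miR-101a embryos and 0.244, 0.205, 0.261 and 0.226 in control embryos. Per length, the copy that was the minor one in control embryos was therefore the more abundant one in every microRNA library. That order rests on the implied gene lengths. In CPM, not divided by length, this copy lay below the other in each microRNA library except miR-29a replicate 2. The log2 ratio differed from control by 2.52 with miR-29a and by 2.47 with miR-101a. The exact two-sided permutation p was 0.0286 for each, the smallest 4 against 4 allows (adjusted p = 0.0857 over 6 tests). With miR-101a that outcome was fixed in advance, since ENSDARG00000069245 lay wholly below control and ENSDARG00000069265 wholly above. The miR-101a p-value therefore gives no support beyond the tests of each copy. Without miR-29a replicate 3 both exact p-values stayed at 0.0286. Their adjusted p was then 0.0429 only because the SOX9 ratio tests in the same adjustment had changed. Between miR-29a and miR-101a the log2 ratio of the MATN3 copies differed by 0.06 (exact p = 0.743). The summed CPM of both copies averaged 31.6 ± 8.20 with miR-29a, 49.0 ± 6.25 with miR-101a and 71.9 ± 15.3 in control embryos.

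**Figure D4:**
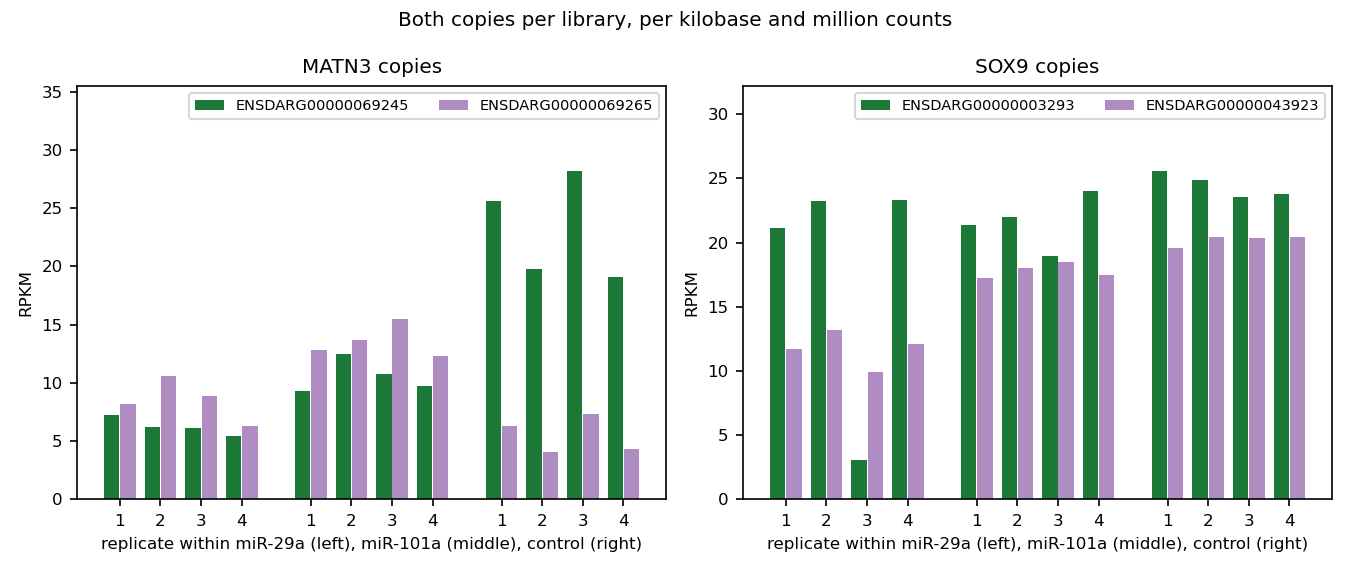
RPKM of both copies of MATN3 (left) and of SOX9 (right) in each library, with miR-29a, miR-101a and control from left to right. MATN3 ENSDARG00000069265 exceeds the other copy in all 8 microRNA libraries and in no control library, and SOX9 ENSDARG00000003293 is the lower copy in miR-29a replicate 3 alone.

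MATN1, the matrilin that marks differentiated cartilage, was barely present. It had 1, 11, 27 and 6 counts in miR-29a replicates 1 to 4, 32, 18, 45 and 35 counts in miR-101a embryos, and 21, 39, 52 and 56 counts in control embryos. The miR-29a libraries overlapped control through replicate 3 alone. The change was -1.69 ± 0.61 with miR-29a (adjusted p = 0.0566) and -0.36 ± 0.54 with miR-101a (adjusted p = 0.738). The miR-29a value was called under RLE scaling (adjusted p = 0.0483), by DESeq2 (0.0255), with the length trend removed (0.0473) and by limma on log2(RPKM + 0.5), where it was -0.68 (0.0121). A fit with replicate number as a block called it as well. With miR-29a replicate 3 omitted it fell by 2.77 log2 units with miR-29a (SE 0.45, adjusted p = 6.69e-05) and was at -2.398 against miR-101a (adjusted p = 5.44e-04), where all libraries gave -1.34 (interval -2.69 to 0.02) and limma on log2(RPKM + 0.5) gave -0.55 (adjusted p = 0.0468). At these counts a change of the size seen with miR-101a was not detectable.

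epyc fell in both microRNA groups and further with miR-29a. It had 56.3, 63.3, 77.2 and 46.8 CPM in miR-29a replicates 1 to 4, 81.4, 98.0, 89.7 and 89.2 CPM in miR-101a embryos, and 132, 112, 152 and 107 CPM in control embryos. The 3 groups did not overlap. Against control it fell by 1.05 log2 units with miR-29a (SE 0.15, adjusted p = 3.48e-04, called in each alternative) and was at -0.49 with miR-101a (SE 0.15, adjusted p = 0.0409). The miR-101a call was lost when any of 8 libraries was left out, namely miR-101a replicate 1, 2, 3 or 4, miR-29a replicate 2 and control replicate 1, 2 or 3 (adjusted p of 0.0505 to 0.126), or when a gene length trend was removed (0.106). The direct difference was -0.56 (SE 0.15, adjusted p = 0.0248), and its call went on omitting miR-101a replicate 2, 3 or 4 or miR-29a replicate 1 or 4 (adjusted p of 0.0571 to 0.0683), in a fit of the 8 libraries alone (0.0571) and with the length trend removed (0.151). Omitting miR-29a replicate 3 instead, the miR-101a value was -0.51 (adjusted p = 0.00585) and the direct difference -0.68 (adjusted p = 0.00246).

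cnmd, in contrast, was not called in any comparison. It had 68.7, 73.1, 117 and 50.6 CPM in miR-29a replicates 1 to 4, 79.8, 86.4, 95.2 and 75.2 CPM in miR-101a embryos, and 81.7, 66.3, 94.99 and 65.4 CPM in control embryos. The groups overlapped throughout. The change was 9.5e-04 with miR-29a (interval -0.47 to 0.47) and 0.13 with miR-101a (interval -0.35 to 0.60), and the direct difference was -0.12 (interval -0.60 to 0.35). Omitting miR-29a replicate 3, the miR-29a value was -0.27 (SE 0.17, adjusted p = 0.21).

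Within groups epyc, cnmd and both MATN3 copies moved together from library to library. After the group mean of each gene was removed, Pearson's correlation of log2 CPM over the 12 libraries was 0.93 between epyc and cnmd, 0.93 between epyc and MATN3 ENSDARG00000069265, 0.90 between epyc and MATN3 ENSDARG00000069245 and 0.84 between both MATN3 copies. Other pairs of matrix genes differed among themselves. The correlation was 0.81 between MATN1 and hapln1a, 0.68 between epyc and hapln1a and 0.66 between cnmd and hapln1a. It was 0.25 between MATN3 ENSDARG00000069245 and MATN1, -0.09 between acana and hapln1a and -0.19 between acana and MATN1. SOX9 ENSDARG00000003293 ran the other way, with -0.61 to epyc, -0.78 to cnmd and -0.77 to SOX9 ENSDARG00000043923. These are descriptions of libraries that share depth and composition, and miR-29a replicate 3, the highest of its group in cnmd and epyc and the lowest in SOX9 ENSDARG00000003293, weighs in each.

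Over the 13554 genes with a symbol and a mean of 5 CPM or more, the profiles closest to the mean standardised profile of the 10 genes were those of col9a3, with a Pearson correlation of 0.98 over 12 libraries, CPT1B (0.98), RBPMS2 (0.98, ENSDARG00000079578), LCTL (0.98) and CASQ1 (0.97, ENSDARG00000038716). Each of the 10 genes enters that mean, which raises its own correlation with it. Among the 10, epyc (0.98) and SOX9 ENSDARG00000043923 (0.97) lay closest to that mean, and MATN3 ENSDARG00000069265 (-0.04) farthest from it.

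Other genes of cartilage were read from a list of 66 genes in the table that holds further Sox factors, proteoglycans, link proteins, enzymes of chondroitin sulphate synthesis and growth plate regulators, and 61 of them were tested. With miR-29a 16 fell and 8 rose (median -0.10), and without replicate 3 22 fell and 19 rose (median -0.03). Over all genes tested, 11.9% fell and 17.1% rose, or 26.8% and 25.8% without replicate 3. UCMA, a matrix protein of early chondrocytes, fell by 1.98 log2 units (SE 0.27, adjusted p = 2.51e-04), at 6.15 ± 2.96 CPM in miR-29a embryos and 24.2 ± 2.97 CPM in control embryos. PRELP, a leucine-rich repeat protein of the matrix, was at -1.46 ± 0.20. In the other direction MIA, a secreted protein of cartilage, rose by 1.43 ± 0.23 and snorc, a chondrocyte proteoglycan, by 1.07 ± 0.23 (adjusted p = 7.78e-04 and 0.00479), and without replicate 3 they were at 1.09 and 0.73. The list thus held calls in both directions.

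With miR-101a 6 of the 61 fell and 8 rose (median -0.12), and without miR-29a replicate 3 19 fell and 14 rose. Over all genes 6.97% fell and 11.7% rose, or 24.2% and 23.7% without that library. HAPLN1 ENSDARG00000068516, a link protein relative of hapln1a, fell by 1.44 log2 units (SE 0.25, adjusted p = 0.00183), at 1.04 ± 0.172 CPM in miR-101a embryos and 2.86 ± 0.620 CPM in control embryos. CHST3, a chondroitin sulfotransferase, was at -0.71 ± 0.13. The proteoglycan gene BGN (biglycan) rose by 1.65 ± 0.23, with 18.8 ± 1.083 CPM in miR-101a embryos and 5.996 ± 0.640 CPM in control embryos, and CCN2, the connective tissue growth factor gene, rose by 1.15 ± 0.16. Between miR-29a and miR-101a 12 of the 61 were lower and 6 higher (18 and 18 without replicate 3), with CILP2 at -2.59 ± 0.30, UCMA at -1.67 ± 0.27, CILP at 0.82 ± 0.13 and MIA at 1.38 ± 0.23. The shares over all genes were 9.23% lower and 8.64% higher, or 22.1% and 21.3% without replicate 3. The relatives of the Sox genes, chosen after their values were seen, were the SOX9 relative SOX8 and the SOX5 relative SOX6. SOX8 ENSDARG00000105301 was at -2.04 ± 0.36 with miR-29a (adjusted p = 0.00124) and at -1.29 ± 0.33 with miR-101a (adjusted p = 0.0162), SOX8 ENSDARG00000037782 was at -1.05 ± 0.36 (adjusted p = 0.0453) and -0.15 ± 0.34 (adjusted p = 0.835), and SOX6 was at -0.50 ± 0.21 (adjusted p = 0.101) and 0.05 ± 0.21 (adjusted p = 0.911).

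**Figure D5:**
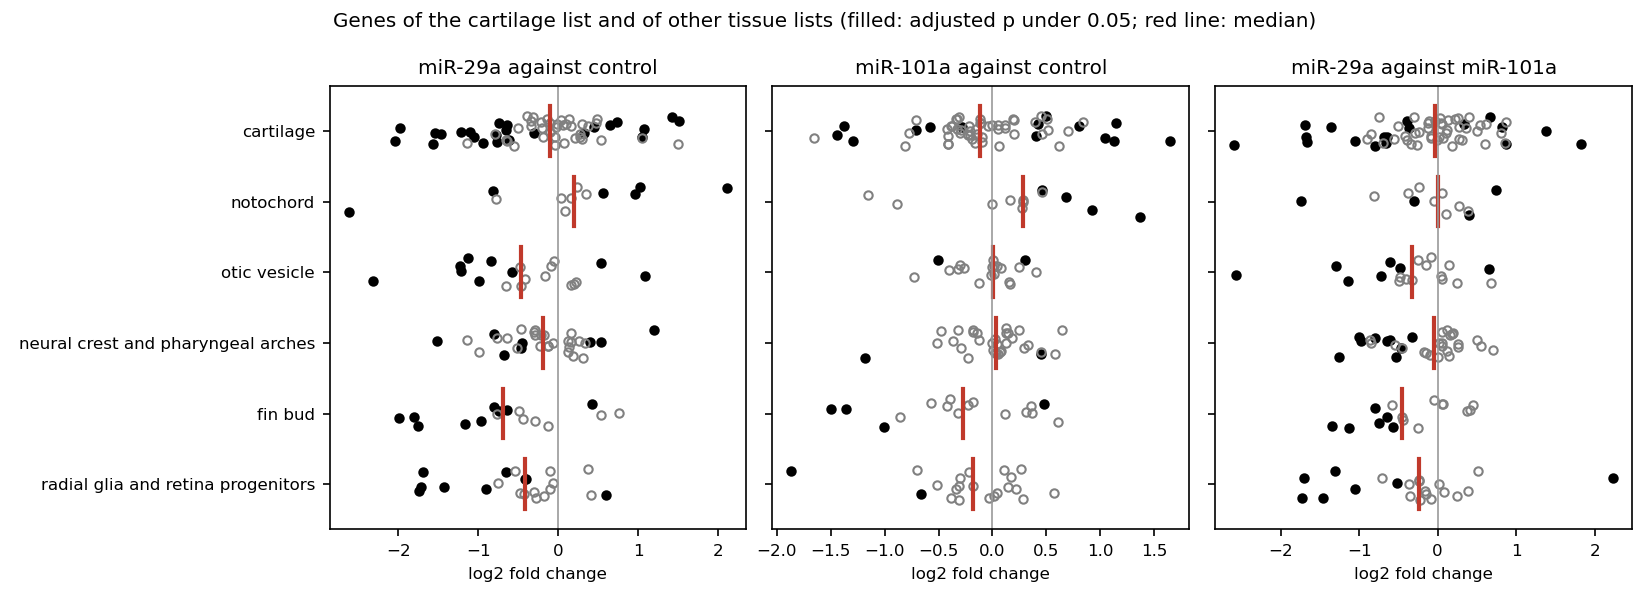
Log2 fold changes of the tested genes of the cartilage list and of 5 lists of other embryonic tissues in the 3 comparisons, filled where the adjusted p was under 0.05, with the median of each list in red. The fin bud list has the lowest median with miR-29a (-0.69), and the cartilage list holds filled points on both sides of 0.

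Markers of other tissues in which some of these genes are active were read as well, and their part in the results was not tested. The shares over all genes were 11.9% lower and 17.1% higher with miR-29a and 6.97% lower and 11.7% higher with miR-101a. Lower and higher together, 3905 of the 20872 genes tested were called with miR-101a and 6045 with miR-29a. With miR-101a the called shares of the ear (10.5%), neural crest (6.25%) and glia (9.52%) lists were below that. Those of the fin bud (25%) and notochord (33.3%) lists were above it. With miR-29a only the neural crest list (25%) was below the share over all genes. Of 16 fin bud genes 8 fell and 1 rose with miR-29a (median -0.69) and 3 fell and 1 rose with miR-101a (median -0.27). Their summed level was 333 to 653 CPM in miR-29a libraries, 488 to 655 CPM in miR-101a libraries and 929 to 964 CPM in control libraries (means 426, 565 and 938). Summed levels of the lists are given with all 12 libraries only, so miR-29a replicate 3 is in each miR-29a range. With miR-29a TBX5, a transcription factor that starts fin outgrowth, was at -1.99 ± 0.31. The gene and2, for a structural protein of the fin fold, was at -1.50 ± 0.29 with miR-101a and at -1.75 ± 0.30 with miR-29a. PRDM1 rose, by 0.43 ± 0.10 with miR-29a and by 0.47 ± 0.10 with miR-101a. Without miR-29a replicate 3 the counts were 13 lower and 2 higher with miR-29a and 8 and 4 with miR-101a, where the shares over all genes were 26.8% and 25.8% with miR-29a and 24.2% and 23.7% with miR-101a.

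Against the same shares, of 19 ear genes 7 fell and 2 rose with miR-29a (median -0.47, 12 and 4 without replicate 3), with stm, the starmaker gene of otoliths, at -1.13 ± 0.13, and 1 fell and 1 rose with miR-101a (median 0.0089, 5 and 3 without replicate 3 of miR-29a). Their summed level was 387 to 474 CPM with miR-29a, 515 to 605 CPM with miR-101a and 551 to 588 CPM in control libraries (means 425, 558 and 566). The ear genes that rose with miR-29a were foxi1, by 1.08 ± 0.24, and oc90, by 0.53 ± 0.12. Of 32 genes of the neural crest and pharyngeal arches, from which head cartilage forms, 5 fell and 3 rose with miR-29a (median -0.19, 20 and 4 without replicate 3) and 1 fell and 1 rose with miR-101a (median 0.04, 6 and 5). With miR-101a the homeobox gene dlx4a was at -1.18 ± 0.35 and EDNRA ENSDARG00000011876 at 0.45 ± 0.08. The summed level of the 32 genes was 805 to 1230 CPM with miR-29a, 963 to 1040 CPM with miR-101a and 960 to 1041 CPM in control libraries (means 935, 998 and 985).

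Set against those shares, of 12 notochord genes 2 fell and 4 rose with miR-29a (median 0.20, 5 and 4 without replicate 3) and 0 fell and 4 rose with miR-101a (median 0.28, 2 and 8). Their summed level was 2113 to 3155 CPM with miR-29a, 2419 to 2521 CPM with miR-101a and 1794 to 1943 CPM in control libraries (means 2440, 2462 and 1859). ENTPD5 was at -2.62 ± 0.36 and MVP at 2.12 ± 0.11 with miR-29a. Of 21 genes of radial glia and retina progenitors 8 fell and 1 rose with miR-29a (median -0.42, 16 and 1) and 2 fell and 0 rose with miR-101a (median -0.18, 11 and 3), with rx1, a gene of the eye field, at -1.69 ± 0.18 under miR-29a. Their summed level was 2487 to 3256 CPM with miR-29a, 2913 to 3021 CPM with miR-101a and 3226 to 3270 CPM in control libraries (means 2796, 2976 and 3245.5). The glia and retina gene that rose with miR-29a was GLUL ENSDARG00000100003, by 0.60 ± 0.13. The other GLUL gene, ENSDARG00000099776, was at -1.87 ± 0.22 with miR-101a and was not called with miR-29a (0.37 ± 0.21). Between miR-29a and miR-101a it was at 2.23 ± 0.22. No tested gene of these lists had 0 counts over a whole group.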

How the data were processed

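Libraries came from whole-embryo RNA and a TruSeq RNA v2 kit, as the labels' protocols state. Strand is not marked by it, so overlapping genes cannot be told apart. The authors deposited a table of raw counts per gene and a table of RPKM values. Build GRCz10 and the tools featureCounts 1.4.6-p4, STAR 2.4.1d and bcl2fastq 1.8.4 are listed in the submitters' processing notes, without settings. The deposited RPKM values were found to divide most counts by another library's total: with totals recycled down the genes, the implied gene length varied by under 1% in 7554 of 7554 well-covered genes, and with own totals in 0. RPKM was therefore recomputed from counts, own totals and these implied lengths. Nothing states that replicates came from separate clutches, so p-values measure the spread between libraries, which may be technical.

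Counts were filtered (filterByExpr, minimum count 10), scaled by TMM and fitted with edgeR 4.0.16 in R 4.3.3 (glmQLFit, robust, 12 libraries). Each comparison was tested with glmQLFTest, adjusted by Benjamini-Hochberg over all genes, and called under 0.05. Intervals cover 95%. The code was tested on simulated data with the same spread for all genes. The simulation held no library that stands apart, so that case was not covered. The 10 genes and the lists were chosen with earlier results of these data known. From each list, up to 2 called genes per direction and comparison by smallest p could be named. List entries were matched by symbol, or by a symbol that copies share, 154 of 166 in all. Same-numbered libraries deviated together in part (correlations -0.20 to 0.39). The labels name no pairing, and the numbers were not taken as pairs in the main fit. A replicate block was fitted as an alternative. Alternatives used DESeq2 1.42.0 and limma 3.58.1.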

Additional observations from a re-analysis of the deposited data

Results flagged for a closer look

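SOX9 ENSDARG00000003293 had 1 library far from the others of its group: miR-29a replicate 3 was at 7.55 CPM, while the other miR-29a libraries were at 34.3 to 38.6 CPM, a gap of 0.859 of the range of the group, above the 95% critical value of Dixon for 4 samples. Of 30 combinations of gene and group 1 passed it, and chance passes about 1 in 20. In that library 33.7% of 13989 genes passed it, against 0.164% to 3.13% in each of the other 11 libraries. The cause was not tested.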

How the results depend on the processing

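Of 630 recomputed values of single genes over 21 alternatives, 538 kept their direction and their side of the threshold, 47 lost a call, 27 gained one and 18 changed sign. Counts of called genes moved most with the libraries in the fit. With only the 8 libraries compared, 10055 genes were called with miR-101a (3905 in all 12), 33 of the cartilage list (14), and in the direct comparison 1891 genes (3730), 1 of the 10 (3) and 9 of the list (18). Removing the length trend left 3 of the 10 called with miR-101a, against 6. limma on log2(RPKM + 0.5) and on log2(RPKM + 0.1) called 5 in the direct comparison. Leaving out each library gave 3 to 7 of the 10, 2711 to 10088 genes and 10 to 33 of the list with miR-101a. It gave 5 to 8, 4703 to 11095 and 16 to 41 with miR-29a, and 1 to 6, 2565 to 9143 and 12 to 36 in the direct comparison. Each highest value came without miR-29a replicate 3. The sign changes were in values that lay near 0 in the main fit and were not called. After the change cnmd with miR-29a was as low as -0.27, without miR-29a replicate 3. The ranges below on leaving out each library hold values of both signs. For cnmd with miR-29a they were -0.028 under RLE and DESeq2, -0.012 with no filter, -0.039 with the replicate block, -0.013 with 8 libraries, -0.076 without the length trend, -0.026 under both limma fits, and -0.27 to 0.16 on leaving out each library. For hapln1a with miR-101a they were -0.0065 under RLE, -0.0068 under DESeq2 and -0.0099 to 0.019 on leaving out each library. SOX5 in the direct comparison was at 0.12 without the length trend and -0.043 to 0.023 on leaving out each library, and cnmd there at -0.38 to 0.033. The SOX9 copy ratio, an alternative chosen after seeing the data, turned to -0.60 against control and against miR-101a without miR-29a replicate 3. The replicate block gave 6, 7 and 4 of the 10 called with miR-101a, with miR-29a and between them (6, 5 and 3 without it). The calls it added were MATN3 ENSDARG00000069265 with miR-29a (0.62, adjusted p = 0.0258) and against miR-101a (-0.63, adjusted p = 0.0366) and MATN1 with miR-29a (-1.83, adjusted p = 0.0296). The block changed no other call among the 10 genes. In 12 of 24 cases a library correlated best with its own number among the 4 libraries of another group, where chance gives 1 in 4. The causes were not tested.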
